A study of Mus musculus with 6 samples.

Results

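Ion channels are the membrane proteins through which calcium, potassium and sodium move, and their genes were taken here by symbol from the deposited counts: voltage-gated potassium, calcium and sodium channels with their accessory subunits, inward rectifier, 2-pore and calcium-activated potassium channels, the TRPC, TRPM and TRPV families, P2X, Piezo, ryanodine and IP3 receptors, and Orai with Stim. The rule took 150 genes, 1 row for each Ensembl ID, out of 20071 IDs in the file. It used names and no measured value. Itpr1 and Piezo1, given as typical of the set, were both well detected.

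The study asked what loss of PCIF1, the enzyme that writes m6Am next to the mRNA cap, does to bone formation. MSCs are stromal cells that can become osteoblasts. They were taken from the femur at 6 weeks of age and kept for 7 days in medium with dexamethasone at 100 nM, β-glycerophosphate at 5 mM and ascorbic acid at 50 µg/mL, which drives osteogenic differentiation, before poly(A) RNA was sequenced. Both groups carried loxP sites around exons 5 to 7 of Pcif1 on both alleles. The Pcif1fl/fl group (labelled WT, 3 libraries, called control from here on) had no Cre. The Prrx1-Cre;Pcif1fl/fl group (labelled Pcif1 CKO, 3 libraries, called CKO from here on) carried Prrx1-Cre, which acts in limb mesenchyme and leaves blood-derived cells of the marrow unrecombined. The design text speaks of duplicates where the labels show 3 libraries of each, and nothing says whether these came from separate mice or cultures, so p-values measure the spread between these libraries, which may be technical.

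Calcium enters a resting cell mainly through channels that open on stretch, heat, lipids or ATP and through the store-operated pair of Stim sensors and Orai pores, and it leaves the endoplasmic reticulum through IP3 and ryanodine receptors. Potassium channels hold the membrane potential negative and so keep up the driving force for calcium. In bone, Piezo1 and TRPV4 are known as sensors of load and of osmotic change, and P2X receptors respond to ATP that loaded cells release.

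PCIF1 methylates an adenosine only when it is the first transcribed base, so start sites are shown for channel genes that differed between genotypes. They are the 13 starts that the RefSeq table used here holds for the 8 genes shown. Each line gives the 20 bases before the start and the 10 from it on GRCm38.p6, 5′ to 3′, with the first transcribed base in capitals.
Trpm3 (chr19:22139026-22139055, plus strand): cgactcaggcggggagcctaCtaggcgaag
Trpm3 (chr19:22448188-22448217, plus strand): ggttcaggggctcaggaaacGccacttgac
Trpv4 (chr5:114658412-114658441, minus strand): gggtgggcgggaccccgcggGgcggcgcgg
Itpr2 (chr6:146502214-146502243, minus strand): ccacgcgcccccctccccggGgcttctccc
Kcnip3 (chr2:127482490-127482519, minus strand): ggggagccgcgatggagcctGgggcggcca
Kcnip3 (chr2:127521383-127521412, minus strand): ggagggtggaaggagtgggcAgggggcggg
Kcnip3 (chr2:127522085-127522114, minus strand): tactggcactggcaggctccTccgggcgcc
Kcnj15 (chr16:95257538-95257567, plus strand): gcggttccttaagaaagataAtctgtttgt
Kcnn4 (chr7:24370243-24370272, plus strand): ccctccccgccctgccctgcCtgctgcagt
Cacnb2 (chr2:14604286-14604315, plus strand): ccccggccacccagcctcgtGcctgcgcca
Cacnb2 (chr2:14824072-14824101, plus strand): agggagttcttgacatctgaAgtacgttag
Cacna1d (chr14:30353477-30353506, minus strand): gatgtgagctccggctgcccGcggtcccga
Cacna1d (chr14:30491147-30491176, minus strand): acacagaacaacagcgctacAgcatttctt
Counted over all of them, the first base was A at 4 of the 13 starts (30.8%). It was A at 1 of 7 for the 4 genes shown that fell and at 3 of 6 for the 4 shown that rose. The genes without a start here, among them Kcnd1, P2rx2, Cacna1a and Cacna1g, which that table lacks, are not counted. These numbers therefore do not compare all genes that fell with all that rose. Of the 32851 starts in the RefSeq table used here, 34.4% began with A, and over the 80 starts of the 52 tested channel genes that have one, 26.2% did. The pair CA, with C just before the start and A at it, was found at 2 of the 13 starts (15.4%) and at 19.2% of all starts. These are annotated starts, and which of them these cells used was not measured.

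The libraries held 20258209 to 28227696 counts. Levels are given in CPM, counts scaled to library size by edgeR's TMM factors, and where genes are compared with each other, in CPM per kilobase of exon. Control replicate 3 stood apart: 3.63% of its counts were mitochondrial against 1.4% to 1.57% in the other 5 libraries, and its chi-square against the other control libraries was 82.9 and 98.6 per gene where the other pairs within a group gave 2.83 to 10.1. Pcif1 itself was at 42.8, 41.7 and 39.3 CPM in control replicates 1 to 3 and at 39.2, 37.8 and 39.7 CPM in the CKO libraries (log2 fold change -0.09, standard error 0.09, adjusted p = 0.645), so the whole-gene count did not mark the deletion of exons 5 to 7. Xist was at 232 to 443 CPM in control and at 0.72 to 1.79 CPM in CKO libraries, and the Y-linked Ddx3y was at 48.4 to 62.2 and 99.1 to 104 CPM, so the sex of the donor mice and the genotype cannot be told apart. The 14 macrophage markers summed to between 36063 and 39987 CPM in all 6 libraries, with Lyz2 at 21981 CPM or more and Csf1r at 940 CPM or more, in cultures labelled MSC.

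Summed over the 150 genes, channel transcripts came to 2180, 2158 and 2215 CPM in control replicates 1 to 3 and to 2179, 2170 and 2212 CPM in CKO replicates 1 to 3, and the groups overlapped. A few genes carried most of that sum: 15 had a mean over 50 CPM, 43 lay between 1 and 50 CPM, and 92 lay under 1 CPM. Of the 150, 68 passed edgeR's filter on low counts, which here needed about 0.442 CPM in 3 libraries, and 0 of the 68 reached that level in libraries of 1 genotype only. The 82 others included 29 with at most 3 counts in every library.

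Among the channel genes with the highest levels per kilobase of exon, Trpv4 passed the test between genotypes. Piezo1, a stretch-activated cation channel, was at 30.7 ± 2.28 and 36.1 ± 1.34 CPM per kilobase (SD, n = 3) in control and CKO libraries, and Kcnab2, a cytoplasmic β subunit of Kv channels, at 33.1 ± 3.11 and 32.7 ± 0.653. Their library ranges overlap in control, and in CKO all 3 Piezo1 values lie above all 3 Kcnab2 values. Kcnk13, a 2-pore potassium channel known from microglia, came next at 24.8 ± 3.81 and 31.0 ± 1.57 CPM per kilobase.

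Trpv2, Orai3, P2rx4 and Trpv4 followed. Trpv2, a cation channel of many immune cells, was at 21.6 ± 1.25 and 21.7 ± 1.61 CPM per kilobase. Orai3, a store-operated pore, was at 20.01 ± 2.11 and 19.1 ± 0.559, and P2rx4, an ATP-gated channel, at 20.3 ± 1.67 and 18.1 ± 1.13. Trpv4, the one that fell, was at 21.9 ± 0.841 and 16.3 ± 1.34 CPM per kilobase.

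**Figure D1:**
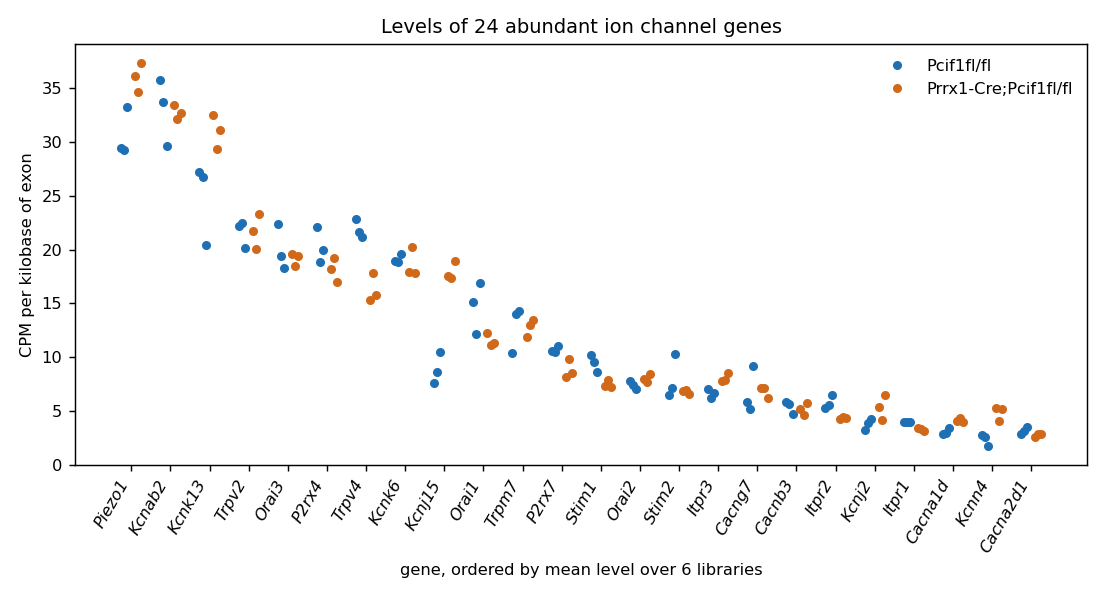
Level of 24 abundant channel genes, in CPM per kilobase of exon (linear axis from 0), with 1 point for each library (blue control, labelled Pcif1fl/fl, orange CKO, labelled Prrx1-Cre;Pcif1fl/fl, replicates 1 to 3 from left to right). Piezo1 and Kcnab2 are the highest, and Kcnj15 shows a clear gap between genotypes at 8.91 against 17.9 CPM per kilobase.

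Between genotypes, 13 of the 68 tested channel genes (19.1%) had an adjusted p under 0.05. In CKO libraries 8 fell: Trpm3, Piezo2, Kcnd1, Kcnip3, P2rx2, Trpv4, Cacna1a and Itpr2. The 5 that rose were: Kcnj15, Cacnb2, Kcnn4, Cacna1g and Cacna1d. The 8 make up 11.76% of the channel genes tested where 4.51% of all 13733 genes tested fell, and the 5 make up 7.35% where 2.88% of all genes rose. With a change of at least 2-fold as well, 4 channel genes fell (5.88%, against 2.5% of all genes) and 3 rose (4.41%, against 1.03%). Between genotypes the ranges of the 3 libraries were separate for 20 channel genes that were lower (29.41%, against 15.7% of all genes) and for 15 that were higher (22.06%, against 15%). The median log2 fold change of the 68 was -0.11, beside 0.0017 for all genes, and 42 of the 68 were below 0. In bulk RNA, fewer cells of a type and less RNA per cell cannot be told apart, for these and all later values.

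The number of genes called moved with single libraries, although 0 of the 13 changed direction when one was left out. Without control replicate 3, 18 fell and 12 rose, with all 13 among them, where the shares of all genes also went up, to 10.4% and 11.1%. Leaving out control replicate 2 left 3 that fell and 1 that rose (3.17% and 1.41% of all genes), as did leaving out CKO replicate 1 (2.32% and 1.06%). Without control replicate 1 the numbers were 6 and 4 (3.49% and 2.1% of all genes). They were 4 and 3 without CKO replicate 2 (2.5% and 1.23%), and 4 and 1 without replicate 3 of that genotype (2.35% and 1.07%). Trpm3, Piezo2, Kcnd1 and Kcnj15 passed the threshold in all 6 of these fits and in the 7 other alternatives.

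**Figure D2:**
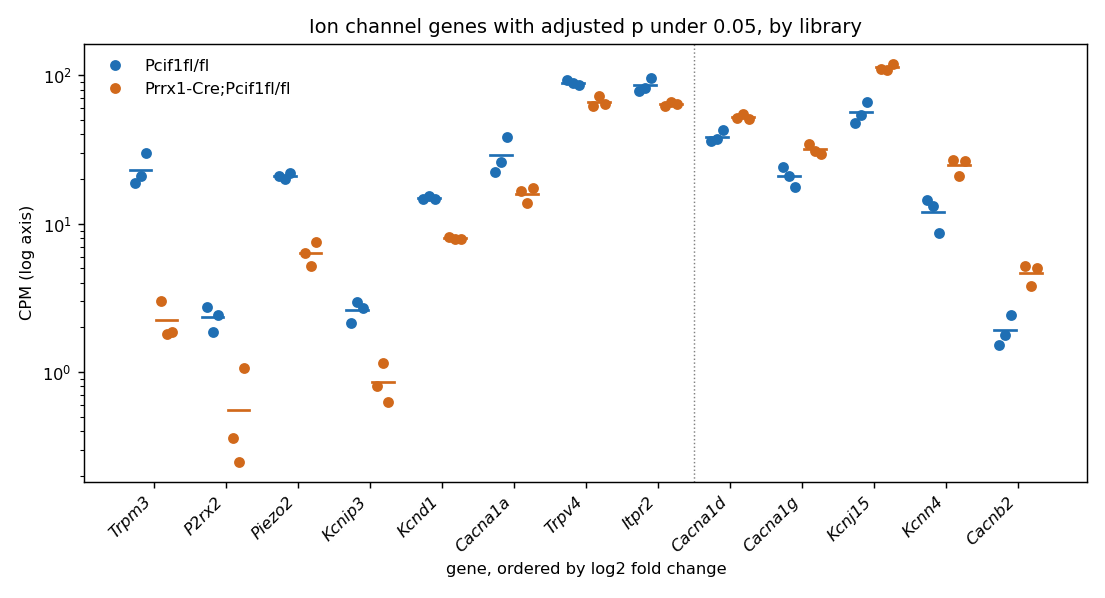
CPM on a log axis of the 13 channel genes with an adjusted p under 0.05, ordered by log2 fold change, with 1 point for each library and a bar at the mean of 3 (blue control, labelled Pcif1fl/fl, orange CKO, labelled Prrx1-Cre;Pcif1fl/fl). The dotted line separates the 8 that fell, on the left, from the 5 that rose, and for none of the 13 do the genotypes overlap.

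Among channels gated by stretch, heat and lipids, Piezo2 and Trpm3 fell furthest. Trpm3 (ENSMUSG00000052387, chromosome 19, 22139046 to 22995410), a cation channel opened by heat and by pregnenolone sulfate and known from sensory neurons, was at 18.7, 21 and 29.8 CPM in control and at 3.02, 1.79 and 1.88 CPM in CKO replicates 1 to 3. The lowest control library stood well above the highest of the other genotype, and the mean fell to 9.62% of its control value (log2 fold change -3.37, standard error 0.26, adjusted p = 0.000234). Of its exonic bases 2.57% overlap antisense genes, and overlaps of this kind cover 1.58% to 4.67% of Itpr1, Itpr3, Cacna1a and Cacna1d.

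Piezo2 (ENSMUSG00000041482, chromosome 18, 63010213 to 63387183), the mechanically gated channel of touch and of position sense, was at 21.1, 20.1 and 22.0 CPM in control and at 6.39, 5.23 and 7.51 CPM in CKO libraries. The CKO libraries lie far below the control libraries, which are close to one another. Piezo2 fell to 30.2% (log2 fold change -1.72, standard error 0.15, adjusted p = 0.000419). Its relative Piezo1 did not pass the test, at 293, 290 and 331 against 359, 344 and 371 CPM (log2 fold change 0.23, standard error 0.09, adjusted p = 0.18). The CKO libraries of Piezo1 were all above the controls, and without control replicate 3 the adjusted p was 0.0026. Of the exonic bases of Piezo1, 24.6% overlap Ctu2 on the other strand, and since the use of strand in counting is not given, reads of this pair cannot be told apart there.

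Piezo1 is by far the more abundant of the pair. Per kilobase, Piezo2 made up 4.01%, 3.85% and 3.71% of the 2 Piezo genes in control and 1.02%, 0.871% and 1.16% in CKO libraries. The Piezo sum was 31.9 ± 2.33 and 36.4 ± 1.41 CPM per kilobase (SD, n = 3).

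Trpv4 (ENSMUSG00000014158, chromosome 5, 114622152 to 114658421), a calcium-permeable channel opened by osmotic swelling and mechanical load, was at 93.0, 88.4 and 86.3 CPM in control and at 62.6, 72.8 and 64.2 CPM in CKO libraries. It fell to 74.5% (log2 fold change -0.42, standard error 0.10, adjusted p = 0.0325), and the groups did not overlap. That call held in 1 of the 6 fits with a library left out, the one without control replicate 3, and the highest adjusted p over all alternatives was 0.182.

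Of the other TRP genes 0 were called by edgeR, DESeq2 or limma-voom. Trpm7, a magnesium- and calcium-permeable channel fused to a kinase, was the most abundant TRPM gene at 118, 158 and 162 against 135, 147 and 152 CPM, with overlapping groups (adjusted p = 0.961). Trpm7 made up 77.8 ± 3.87% of TRPM transcripts per kilobase in control and 79.6 ± 1.95% in CKO libraries. The share of Trpm3 went from 5.72 ± 1.08% to 0.577 ± 0.216%. TRPC genes were lower still. The highest in CPM, Trpc1, a pore that often joins other TRPC subunits, was at 3.10, 2.72 and 2.94 against 1.94, 2.69 and 1.92 CPM (adjusted p = 0.309), and 2 of 6 TRPC and 2 of 5 TRPV genes passed the filter, with 0 TRPC genes at an unadjusted p under 0.05 or called by DESeq2 or limma-voom.

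Among the ATP-gated P2X receptors 5 of 7 were tested and 1, P2rx2, fell, where 4.51% of all genes fell. P2rx2 (ENSMUSG00000029503, chromosome 5, 110339812 to 110343212) was at 2.75, 1.87 and 2.44 CPM in control and at 0.36, 0.249 and 1.06 CPM in CKO libraries, so that even its highest CKO library lay below the lowest control. The mean fell to 23.6% (log2 fold change -2.07, standard error 0.46, adjusted p = 0.0314). Without CKO replicate 3, its highest CKO library, the log2 fold change was -2.91. It lost the call without control replicate 1 or 2 and without CKO replicate 1 or 2, with adjusted p up to 0.148. P2rx7, the channel of macrophage ATP responses, was chosen here after its values were seen. P2rx4 and P2rx7 made up 60.5 ± 1.42% and 31.95 ± 2.00% of P2X transcripts per kilobase in control libraries. P2rx2 made up only 2.72 ± 0.377%. P2rx7 stood at 63.2, 62.3 and 65.8 against 48.8, 58.6 and 50.7 CPM, without overlap and without passing the test (adjusted p = 0.158).

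Of the 3 IP3 receptors, the calcium release channels of the endoplasmic reticulum, Itpr2 fell and the other 2 did not pass the test. Itpr2 (ENSMUSG00000030287, chromosome 6, 146108299 to 146502223) was at 78.4, 82.5 and 96.3 CPM in control and at 62.5, 65.8 and 64.3 CPM in CKO libraries. It fell to 74.9% (log2 fold change -0.42, standard error 0.10, adjusted p = 0.0464). This was the call closest to the threshold. Among the alternatives that lost it were limma-voom and the fits without control replicate 2 or any single CKO library, with adjusted p up to 0.211.

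Itpr1 (ENSMUSG00000030102, chromosome 6, 108213096 to 108551109) was at 72.0, 73.5 and 72.8 against 63.2, 61.2 and 58.0 CPM. Its CKO libraries were all below the controls, with an adjusted p of 0.117 (log2 fold change -0.26, standard error 0.09). Itpr3, chosen after its values were seen, was at 63.3, 56.1 and 60.6 against 69.9, 70.8 and 77.0 CPM (log2 fold change 0.27, standard error 0.09, adjusted p = 0.13). Without control replicate 3, Itpr1 had an adjusted p of 0.0151 and Itpr3 of 0.0153.

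In every library the order per kilobase was Itpr3, Itpr2 and Itpr1, and the shares of the sum differed between genotypes. Itpr3 made up 43.2%, 39.4% and 39.1% of IP3 receptor transcripts per kilobase in control and 50.3%, 50.2% and 53.2% in CKO libraries. Itpr2 went from 35.2 ± 2.62% to 27.6 ± 0.696% and Itpr1 from 24.2 ± 1.14% to 21.1 ± 1.33% (SD, n = 3). None of the 3 shares overlapped between genotypes, which an exact two-sided permutation test of 3 against 3 cannot take below a p of 0.1. The sum of the family was 16.4 ± 0.710 and 15.7 ± 0.317 CPM per kilobase. Ryanodine receptors, the release channels of muscle, were low: 0 of 3 passed the filter and the highest, Ryr1, was between 0.0368 and 0.433 CPM.

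**Figure D3:**
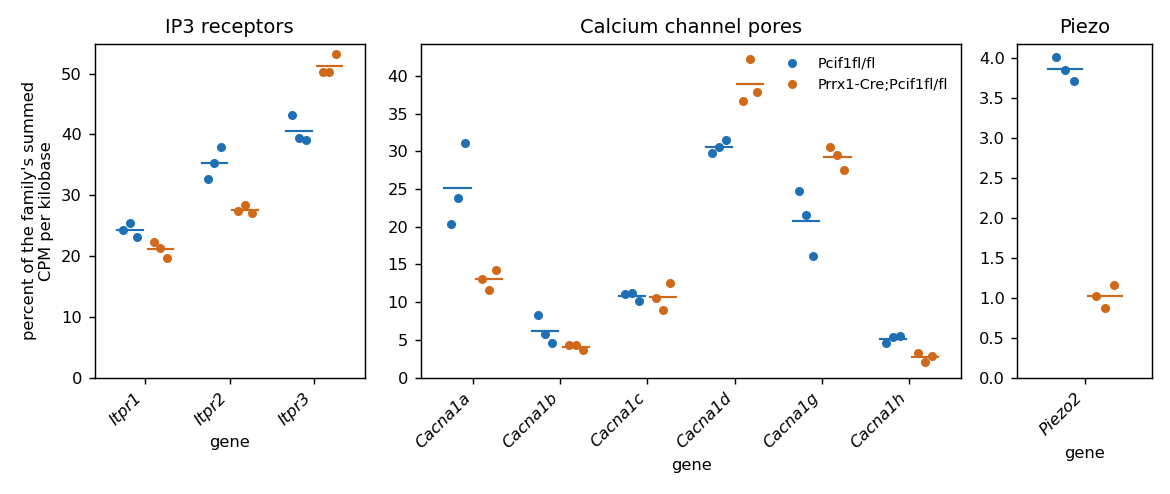
Share of selected genes in the summed CPM per kilobase of their family, in percent (linear axes from 0), with 1 point for each library and a bar at the mean of 3 (blue control, labelled Pcif1fl/fl, orange CKO, labelled Prrx1-Cre;Pcif1fl/fl). Itpr3, Cacna1d and Cacna1g lie higher, and Itpr1, Itpr2, Cacna1a, Cacna1b, Cacna1h and Piezo2 lower, in all 3 CKO libraries than in any control library.

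For store-operated entry, in which Stim proteins sense the emptied store and open Orai pores, 5 of 5 genes were tested and 0 passed (2 at an unadjusted p under 0.05, and 0 by DESeq2 or limma-voom). Stim1 was at 106, 98.9 and 89.4 against 76.4, 81.3 and 74.8 CPM, without overlap (log2 fold change -0.34, standard error 0.10, adjusted p = 0.075), and without control replicate 3 its adjusted p was 0.00062. The following genes were chosen after their values were seen: Orai1, the main pore of immune cells, was at 34.6, 27.9 and 38.7 against 28.2, 25.6 and 25.9 CPM, and its groups overlapped (log2 fold change -0.35, standard error 0.14, adjusted p = 0.189). Orai2 and Stim2 also overlapped, with adjusted p of 0.524 and 0.48. Summed per kilobase the 5 genes came to 61.9, 55.6 and 61.1 in control and to 54.0, 52.1 and 52.9 CPM per kilobase in CKO libraries.

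Of the 8 pore subunits of voltage-gated calcium channels 7 were tested, 1 fell and 2 rose, where 4.51% of all genes fell and 2.88% rose. Cacna1a (ENSMUSG00000034656, chromosome 8, 84388440 to 84640246), the P/Q-type pore known from synapses, was at 22.3, 26.1 and 38.4 CPM in control and at 16.7, 13.8 and 17.3 CPM in CKO libraries. Control replicate 3 was the highest by far, and the other 2 controls still lay above all CKO libraries (log2 fold change -0.86, standard error 0.21, adjusted p = 0.0407). This call was lost under limma-voom and in 4 of the 6 fits with a library left out, those without control replicate 2 and without each CKO library, with adjusted p up to 0.172.

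Cacna1d (ENSMUSG00000015968, chromosome 14, 30039939 to 30491455), an L-type pore that opens at low voltage, was at 36.1, 37.0 and 43.0 against 51.6, 55.3 and 50.7 CPM. It rose 1.36-fold (log2 fold change 0.44, standard error 0.11, adjusted p = 0.0413). Cacna1g (ENSMUSG00000020866, chromosome 11, 94408391 to 94474198), a T-type pore, was at 24.1, 20.9 and 17.6 against 34.5, 31.0 and 29.6 CPM and rose 1.52-fold (log2 fold change 0.60, standard error 0.14, adjusted p = 0.0346). Neither overlapped between genotypes. Of the fits with a library left out, each lost the call without control replicate 2 and without each CKO library, and Cacna1d also without control replicate 1, with adjusted p up to 0.164 for Cacna1g and 0.17 for Cacna1d.

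The calcium pores summed to 9.99 ± 0.693 and 10.7 ± 0.382 CPM per kilobase, and the shares of the 3 called pores in that sum did not overlap between genotypes. Cacna1a made up 20.3%, 23.9% and 31.1% of the sum in control and 13.1%, 11.6% and 14.3% in CKO libraries. Cacna1d went from 30.7 ± 0.876% to 39.0 ± 2.90% and Cacna1g from 20.8 ± 4.36% to 29.2 ± 1.53%. Shares of Cacna1b and Cacna1h, which were not called, did not overlap either. Cacna1b went from 6.20 ± 1.92% to 4.07 ± 0.405% and Cacna1h from 5.15 ± 0.514% to 2.71 ± 0.565%. Cacna1c, the main L-type pore of heart and smooth muscle, overlapped at 10.8 ± 0.581% and 10.7 ± 1.77%. Cacna1b, Cacna1h and Cacna1c were chosen after their values were seen.

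Of the 13 accessory calcium channel genes 7 were tested and 1 rose, where 2.88% of all genes rose. Cacnb2 (ENSMUSG00000057914, chromosome 2, 14603088 to 14987908), a β subunit that brings pores to the membrane, was at 1.53, 1.76 and 2.44 against 5.18, 3.78 and 5.05 CPM. It rose 2.44-fold without overlap (log2 fold change 1.28, standard error 0.24, adjusted p = 0.0146). Without control replicate 2 and without CKO replicate 1 or 3 the call was lost, with adjusted p up to 0.0784, and 7.32% of its exonic bases overlap antisense genes. Cacna2d1, the α2δ subunit bound by gabapentin, was the most abundant in CPM at 35.2, 39.5 and 43.4 against 32.5, 35.8 and 35.5, with overlapping groups (adjusted p = 0.388).

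**Figure D4:**
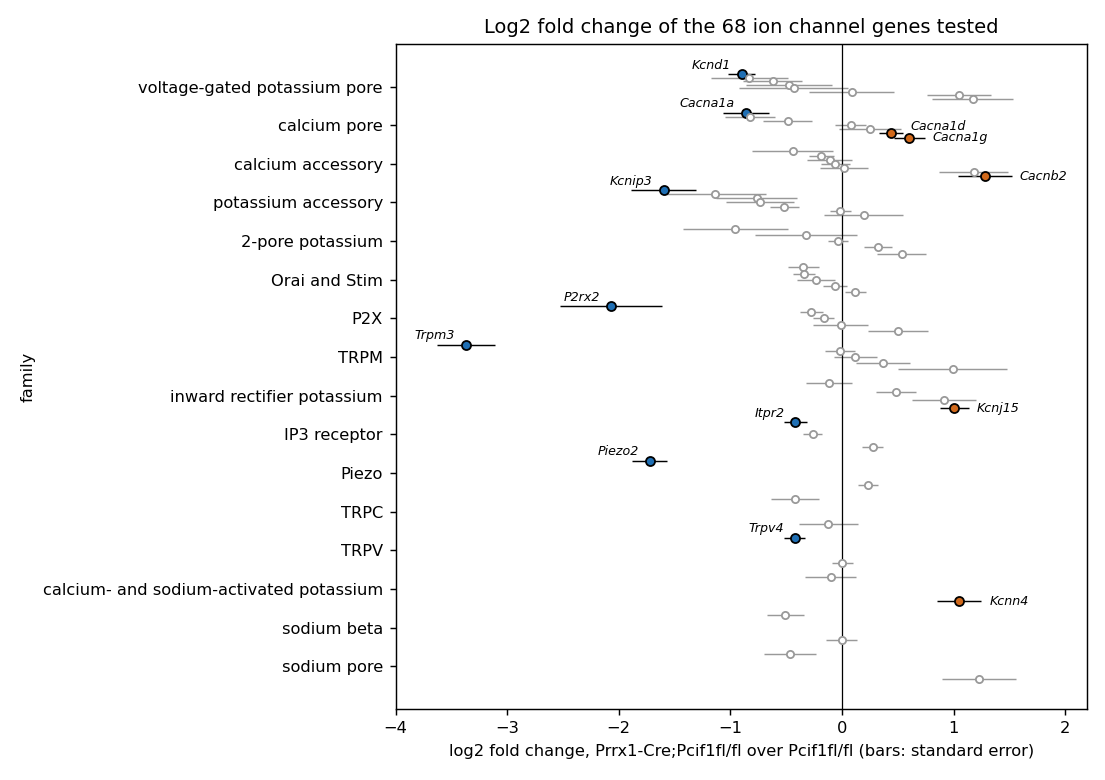
Log2 fold change (CKO over control, linear axis) of the 68 channel genes tested, by family, with bars of 1 standard error. Filled points are the 13 with an adjusted p under 0.05, blue where they fell and orange where they rose, and open points are the other 55.

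Of the potassium channel pores, Kcnd1 fell and Kcnj15 and Kcnn4 rose. Among voltage-gated pores 8 of 33 were tested and 1 fell, where 4.51% of all genes fell. Kcnd1 (ENSMUSG00000009731, chromosome X, 7822289 to 7838280), an A-type Kv4 pore, was at 14.7, 15.4 and 14.6 CPM in control and at 8.15, 7.91 and 7.89 CPM in CKO libraries. Replicates of each genotype were within 1 CPM of one another, and the mean fell to 53.6% (log2 fold change -0.90, standard error 0.12, adjusted p = 0.00277). Kcnd1 is X-linked, and of 456 X-linked genes tested 32 fell (7.02%, against 4.51% of all genes) and 15 rose. Since Xist differed between the groups as well, the sex of the donor mice and the genotype cannot be told apart for Kcnd1.

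Kcnip3 (ENSMUSG00000079056, chromosome 2, 127456498 to 127522094), a calcium-binding partner of Kv4 pores that is also known as a transcriptional repressor, fell as well. It was at 2.14, 2.98 and 2.69 against 0.81, 1.14 and 0.625 CPM, without overlap (log2 fold change -1.60, standard error 0.29, adjusted p = 0.0128). The call was lost without control replicate 2 and without CKO replicate 1 or 3, with adjusted p up to 0.0719. Of the 14 accessory potassium channel genes 7 were tested, 1 fell and 0 rose (4.51% of all genes fell), and 5 of the 7 were lower without overlap, as were 15.7% of all genes. The voltage-gated pores summed to 4.80, 4.86 and 4.90 CPM per kilobase in control and to 3.56, 3.40 and 3.81 in CKO libraries.

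Kcnj15 and Kcnn4, which pass potassium at rest or when calcium rises, went up. Kcnj15 (ENSMUSG00000062609, chromosome 16, 95257558 to 95300260), the inward rectifier Kir4.2, was at 47.9, 54.5 and 66.4 CPM in control and at 111, 110 and 120 CPM in CKO libraries. Every CKO library was well above the highest control, and Kcnj15 rose 2.01-fold (log2 fold change 1.01, standard error 0.13, adjusted p = 0.00231). Of its exonic bases 5.28% overlap an antisense gene. Of the inward rectifiers 4 of 11 were tested. The family summed to 14.4 ± 2.17 CPM per kilobase in control and to 25.2 ± 1.956 in CKO libraries. Kcnj15 alone made up 8.91 ± 1.49 and 17.9 ± 0.873 of these.

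Kcnn4 (ENSMUSG00000054342, chromosome 7, 24370263 to 24386690), the calcium-activated channel KCa3.1 of immune and stromal cells, was at 14.4, 13.1 and 8.68 against 27.1, 21 and 26.6 CPM. The groups did not overlap and Kcnn4 rose 2.07-fold (log2 fold change 1.05, standard error 0.20, adjusted p = 0.0162). That call was lost without control replicate 2 and without CKO replicate 1 or 3, with adjusted p up to 0.0845. Calcium- and sodium-activated potassium channels summed to 3.48 ± 0.892 and 5.91 ± 0.683 CPM per kilobase. Of the 12 2-pore potassium channels, which leak at rest, 5 were tested and 0 passed (2 at an unadjusted p under 0.05, and 0 by DESeq2 or limma-voom). Kcnk13 was at 84.8, 83.3 and 63.6 against 101, 91.5 and 97.0 CPM, without overlap (adjusted p = 0.178).

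Of the sodium channels 2 of 9 pores and 2 of 4 β subunits were tested, and 0 passed (1 of each at an unadjusted p under 0.05). DESeq2 called 2 pores, Scn7a higher and Scn8a lower, and limma-voom 0. Scn2a, a pore of neurons and the highest in CPM of its family, was at 3.36, 4.15 and 5.38 against 3.69, 2.64 and 3.03 CPM, and the groups overlapped (adjusted p = 0.299).

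The tested genes closest to the threshold, chosen after their values were seen, lay in both directions. Kcnab1, a β subunit of Kv channels, was at 8.47, 8.60 and 8.78 CPM in control and at 6.30, 5.72 and 6.06 CPM in CKO libraries, a narrow spread in each and no overlap (adjusted p = 0.053). Cacna1h, a T-type pore like Cacna1g, was at 4.28, 5.07 and 5.77 against 3.51, 2.14 and 2.89 CPM (adjusted p = 0.0658), the opposite sign to Cacna1g. Scn7a, a sodium pore that senses extracellular sodium, was at 0.83, 0.809 and 0.896 against 1.85, 2.84 and 1.30 CPM (adjusted p = 0.0645). Kcnh7, an ERG-type potassium pore, was at 0.743, 0.845 and 1.11 against 2.21, 1.49 and 1.92 CPM (adjusted p = 0.0639), and Cacng8, an AMPA receptor partner named for its calcium channel relatives, at 0.568, 0.441 and 0.681 against 1.13, 1.19 and 1.54 CPM (adjusted p = 0.0578). None of the 5 overlapped between genotypes, where 15.7% of all genes were lower and 15% higher without overlap. They were chosen by their adjusted p, so this adds no further test. DESeq2 called Kcnab1, Cacna1h and Scn7a. Without control replicate 3 each of the 5 was called, where 10.4% of all genes fell and 11.1% rose.

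Kcnk6, a 2-pore channel of many tissues, lay further from the threshold and was also chosen after its values were seen. It was at 78.8, 78.2 and 81.5 against 74.4, 84.2 and 73.9 CPM (adjusted p = 0.858). Trpm2, a channel opened by ADP-ribose and known from phagocytes, chosen in the same way, was at 12.7, 12.6 and 11.3 against 12.6, 22.8 and 12 CPM, where CKO replicate 2 alone stood high (adjusted p = 0.43).

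Of the 82 channel genes that were not tested, 53 reached more than 3 counts in some library, and Kcne4 alone reached more than 20. The genes of this paragraph were chosen after their values were seen. Kcne4, an accessory subunit that inhibits some Kv channels, had 49, 80 and 12 counts in control and 8, 6 and 8 in CKO libraries. Its lowest control, replicate 3, lay close to the CKO libraries. Kcnq3, a pore of the M current, had 7, 11 and 14 counts against 0 in each CKO library. This is 8.76-fold lower when the 3 CKO libraries together are given a floor of 3 counts. The control counts are taken as exact in that value, so it is not a lower bound. Scn8a had 2, 12 and 9 counts against 0 in each, or 6.3-fold lower by the same floor. DESeq2, which keeps more genes of low count, called all 3 of these lower, and edgeR without its filter called Kcne4 and Kcnq3.

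Partners of these channels were examined through 4 lists of 151 genes: calcium pumps and store proteins, calcium sensors and effectors, sodium and potassium pumps, and other channels. Of the 106 tested, 4 fell (3.77%) and 4 rose (3.77%), shares close to the 4.51% and 2.88% of all genes. Leaving out 1 library moved these to between 3 and 10 that fell and between 2 and 18 that rose, the highest numbers without control replicate 3, where 10.4% of all genes fell and 11.1% rose.

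On the list of calcium sensors and effectors 33 of 35 were tested, 2 fell and 1 rose, numbers close to the 4.51% and 2.88% of all genes. Rcan1, which encodes an inhibitor of the phosphatase calcineurin, was at 36.6, 41.9 and 41.1 against 142, 102 and 118 CPM (log2 fold change 1.60, standard error 0.14, adjusted p = 0.00031). Its relative Rcan2 fell from 11.7 ± 1.959 to 7.15 ± 0.583 CPM (adjusted p = 0.0356), and the phospholipase gene Plce1, whose product makes IP3, fell from 33.9 ± 3.68 to 18.8 ± 0.478 CPM (adjusted p = 0.00314). Calcium pumps and store proteins had 18 of 30 tested and 1 that rose, Atp2a3, a pump that fills the endoplasmic reticulum, from 55.6 ± 3.77 to 81.0 ± 13.2 CPM (adjusted p = 0.0435).

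Gja1, which encodes connexin 43, the gap junction channel of bone cells, was at 1071, 995 and 961 CPM in control and at 412, 402 and 385 CPM in CKO libraries (log2 fold change -1.34, standard error 0.09, adjusted p = 0.000135). It was the 1 of 43 other channels tested that fell. Ano1, a calcium-activated chloride channel, rose from 1.27 ± 0.160 to 4.03 ± 0.732 CPM (adjusted p = 0.00338), and Pkd2, a cation channel of cilia and endoplasmic reticulum, from 193 ± 14.4 to 255 ± 21.6 CPM (adjusted p = 0.0494). Of 12 pump genes for sodium and potassium tested 1 fell, Fxyd1, a regulator of the sodium pump, from 4.95 ± 1.16 to 1.63 ± 0.151 CPM (adjusted p = 0.00512).

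Markers of several cell types moved with the genotype, and their part in the channel results was not tested. The counts for these lists stand beside 4.51% of all genes that fell and 2.88% that rose. Of 9 adipocyte markers tested 6 fell and 0 rose, with Adipoq at 42.9 to 53.8 CPM in control and 0.289 to 1.49 CPM in CKO libraries, though their sum, most of it Lpl, Cebpa and Fabp4, was 792 to 838 and 671 to 871 CPM. Of 10 osteoblast markers tested 3 fell (Sp7, Alpl and Ibsp) and 1 rose (Col1a1), with sums of 14602 to 20743 and 17908 to 26671 CPM, mostly Spp1, and with Bglap at 0.045 to 0.249 CPM in all libraries. Of 14 MSC markers 3 fell and 5 rose, with sums of 10811 to 13735 and 16873 to 18036 CPM. Of 4 chondrocyte markers tested 2 fell, with sums of 42.0 to 54.7 and 34.1 to 41.0 CPM.

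Of 4 neuron markers tested 1, Tubb3, rose and 0 fell, and the list summed to 5.88 to 7.29 CPM in control and 10.9 to 11.6 CPM in CKO libraries, most of it Tubb3. Map2 was at 0.83 to 1.15 and 0.315 to 0.697 CPM and Stmn2 at 0.743 to 1.07 and 0.385 to 0.647 CPM, both lower without overlap, and Nefm at 0.11 to 0.323 and 0.481 to 0.675 CPM, higher without overlap. These 3 did not pass the test, and Rbfox3 and Snap25 were at most at 0.0717 CPM in any library. Of 6 Schwann cell markers tested 1, S100b, fell (sums 147 to 152 and 138 to 152 CPM). Of 14 macrophage markers 1, Fcgr1, rose. The 10 endothelial markers gave 0 calls (2 at an unadjusted p under 0.05, 1 by DESeq2 and 0 by limma-voom), with sums of 34.5 to 47.0 and 32.2 to 36.6 CPM. The 3 skeletal muscle markers tested also gave 0 (2 unadjusted, 0 by DESeq2 or limma-voom), with low sums (2.72 to 4.28 and 2.16 to 2.66 CPM, Myog at most at 0.0962 CPM). Of 10 smooth muscle and pericyte markers 1, Rgs5, fell (611 to 773 and 639 to 668 CPM), and of 2 neutrophil markers tested 1, S100a8, rose (1.00 to 1.14 and 1.44 to 1.98 CPM, with Mpo at 0 in 5 libraries).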

How the data were processed

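The authors sequenced 6 poly(A) libraries of MSCs, 3 of each genotype (control for Pcif1fl/fl, CKO for Prrx1-Cre;Pcif1fl/fl). The deposited values are read counts per gene, not normalized. Per the labels the submitters' processing notes name FastQC and HISAT2 with mm10, and how reads were assigned to genes (tool, annotation, strand) is not given in the sources used here. Of 20163 rows, 92 repeat an ID with the same counts and were dropped. Counts were fitted with edgeR 4.0.16 in R 4.3.3 (filterByExpr, TMM, glmQLFit, glmQLFTest, genotype as the only term), with Benjamini-Hochberg adjustment over 13733 genes, and the standard error was the log2 fold change over the square root of F. Exon lengths, positions and overlaps come from GENCODE release M21 on GRCm38 (mm10), which held all 150 channel genes, and start sequences from RefSeq on GRCm38.p6. Sequence on chromosome 18 is not shown here, which left Piezo2 out of the starts shown and counted. Depth was 20258209 to 28227696 counts, and floors cover counting error only.

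The channel genes, the 4 lists of partners and the 11 lists of cell type markers were chosen with earlier results of these data known. Genes are named by a rule: Itpr1, Piezo1, each channel gene with an adjusted p under 0.05, the 8 with the highest level per kilobase, the highest in CPM of each family not yet named, and up to 3 called genes of each partner list. Results for 1 gene of the rule and 1 marker are not reported here. Alternatives were DESeq2 1.42.0, limma-voom (limma 3.58.1), RLE or total-count scaling, no filter, a mean of at least 10 counts, the replicate number as a block, and leaving out each library. Tested on simulated data, edgeR recovered 87 of 100 genes changed by 1 and 100 of 100 changed by 2 on the log2 scale. There were 15 false calls among 13596 genes. Changes were put only into genes with a mean over 1 CPM, and no simulated library was made to stand apart as control replicate 3 does. The numbers therefore do not cover genes of lower level or such a library.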

Additional observations from a re-analysis of the deposited data

How the results depend on the processing

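Directions of the 13 called channel genes and of Itpr1, Itpr3, Piezo1, Stim1 and Orai1 were kept under all 13 alternatives, and of the comparisons for these 18 genes 190 stayed on the same side of the threshold, 40 lost it and 4 passed it, those 4 without control replicate 3. DESeq2 called 13 channel genes lower in place of 8, 7 of them at least 2-fold in place of 4, and 9 partner genes higher in place of 4. It adjusted p-values for 106 channel genes in place of 68, and all 13 called by edgeR were among its calls. Leaving out 1 library gave 3 to 18 channel genes lower and 1 to 12 higher, 2 to 6 lower and 0 to 5 higher at least 2-fold, a median log2 fold change of -0.1216 to -0.0534, and 3 to 10 partner genes lower and 2 to 18 higher. Over all genes the fit without control replicate 3 called 1447 lower and 1544 higher in place of 620 and 396, and the cause was not tested.

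With the replicate number as a block, 6 channel genes were lower and 4 higher, and Itpr2, Trpv4 and Cacna1d lost the call. Deviations of samples that share a number correlated at 0.0554, -0.045 and -0.013, so the numbers do not pair the samples. At these depths a gene under about 0.442 CPM in most libraries was not tested.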
